A study of Homo sapiens with 6 samples.

Results

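The genes described here encode the subunits of the NuRD complex other than its CHD proteins, and they were chosen by symbol: HDAC1, HDAC2, MTA1, MTA2, MTA3, MBD2, MBD3, GATAD2A, GATAD2B and CDK2AP1. They are 10 of the 26485 gene symbols in the count tables, and all 10 passed the filter on low counts. RNA-seq was made from K562, an established human chronic myeloid leukaemia line with an erythroid-like expression programme, to study how the zinc-finger protein ZNF410 regulates gene expression. The 6 libraries came from K562 cells with the guide sgNeg2, labelled WT and called the control guide here, and from ZNF410 KO cells made with ZNF410_sgRNA#1 or ZNF410_sgRNA#2, called sgRNA1 and sgRNA2. Each group had 2 libraries, numbered replicate 1 and replicate 2, and every group was grown in the same medium. What a replicate number stands for, whether the lines are clones or pools, and whether the replicates are separate cultures are not given in the sources used here, so p-values measure the spread between these libraries only.

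NuRD, the nucleosome remodelling and deacetylase complex, joins an ATP-driven CHD remodeller to histone deacetylases on one chromatin-bound assembly. HDAC1 and HDAC2 are its deacetylases, MTA1, MTA2 and MTA3 are the scaffolds that bind them, MBD2 and MBD3 are alternative methyl-CpG-binding-domain subunits, GATAD2A and GATAD2B link the MBD protein to the remodeller, and CDK2AP1 is a small accessory subunit. Paralogues of a family generally occupy the same position in the complex, so that their balance sets which forms of NuRD a cell can make. CHD4, the main remodeller of NuRD, is a known direct target of ZNF410, and NuRD takes part in fetal globin silencing in erythroid cells.

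By the RefSeq annotation of GRCh38.p14, the members on the plus strand are HDAC1 at chr1:32292083-32333626, MTA1 at chr14:105419827-105470729, MTA3 at chr2:42494110-42756946 and GATAD2A at chr19:19385843-19508932. Those on the minus strand are HDAC2 at chr6:113933028-113971148, MTA2 at chr11:62593214-62601865, MBD2 at chr18:54151606-54224669, MBD3 at chr19:1573596-1592865, GATAD2B at chr1:153804725-153922972 and CDK2AP1 at chr12:123260976-123272240.

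Promoter sequences are shown for HDAC1, MTA2, GATAD2A and CDK2AP1, the 4 members whose counts passed the test as higher in replicate 2. Each is the 250 bases before a RefSeq transcript start on GRCh38.p14, read 5′ to 3′ on the strand of the gene. The windows are chr1:32291833-32292082 on the plus strand for HDAC1, chr11:62601866-62602115 on the minus strand for MTA2, chr19:19385593-19385842 on the plus strand for GATAD2A and chr12:123271252-123271501 on the minus strand for CDK2AP1. The CDK2AP1 window lies inside the annotated span of the gene, before the start of one of its transcripts. Capitals mark matches, on either strand, to the letters GGGCGG (a GC box) or CCAAT.
HDAC1 promoter: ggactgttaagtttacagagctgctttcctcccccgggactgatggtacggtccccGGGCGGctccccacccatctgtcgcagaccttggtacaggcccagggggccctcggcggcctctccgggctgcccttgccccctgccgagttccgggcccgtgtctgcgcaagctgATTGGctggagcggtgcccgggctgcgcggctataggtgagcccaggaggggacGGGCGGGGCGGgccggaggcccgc
MTA2 promoter: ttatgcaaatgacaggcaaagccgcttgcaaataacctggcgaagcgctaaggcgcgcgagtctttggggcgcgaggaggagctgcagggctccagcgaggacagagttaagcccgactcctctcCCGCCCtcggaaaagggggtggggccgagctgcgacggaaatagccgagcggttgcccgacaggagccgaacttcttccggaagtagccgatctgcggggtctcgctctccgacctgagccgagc
GATAD2A promoter: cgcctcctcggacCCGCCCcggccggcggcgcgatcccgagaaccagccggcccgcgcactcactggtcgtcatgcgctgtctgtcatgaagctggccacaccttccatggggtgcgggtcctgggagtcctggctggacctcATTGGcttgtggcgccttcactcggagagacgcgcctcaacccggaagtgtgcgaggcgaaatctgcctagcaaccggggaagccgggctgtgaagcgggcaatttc
CDK2AP1 promoter: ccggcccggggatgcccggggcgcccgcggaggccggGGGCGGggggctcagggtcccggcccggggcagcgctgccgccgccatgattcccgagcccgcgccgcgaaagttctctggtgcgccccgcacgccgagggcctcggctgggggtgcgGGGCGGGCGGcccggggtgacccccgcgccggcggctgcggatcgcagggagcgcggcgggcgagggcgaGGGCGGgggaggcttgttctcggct
The GC box matched 3 times in the HDAC1 window, 1 time in MTA2, 1 time in GATAD2A and 4 times in CDK2AP1, counting overlapping matches. Of all 35116 promoter windows of this length, 42.6% held it. HDAC1 and GATAD2A each held 1 CCAAT match, a motif present in 32.0% of windows. The letters CCCATAA, from the core of the known ZNF410 recognition sequence, were in none of the 4 windows shown and in 1.60% of all windows. MTA2, GATAD2A and CDK2AP1 have further RefSeq windows that are not shown, and a CDK2AP1 window at chr12:123270284-123270533 held 1 CCCATAA match. A motif of erythroid transcription factors, AGATAA, was in none of the 4 shown, and 9.17% of all windows held it. These matches describe letters only. G and C made up 82.8% of the CDK2AP1 window, 71.6% of HDAC1, 67.2% of GATAD2A and 63.2% of MTA2.

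Gene counts summed to between 8788816 and 9537470 per library. ZNF410 itself stood at 38.2 and 34.0 CPM (gene counts scaled to a common library size) with the control guide, and at 19.3, 24.5, 17.0 and 20.6 CPM in the 4 knockout libraries, so all 4 lay below both controls. The line was checked against 9 K562 marker genes, and 9 of 9 exceeded 10 CPM. Their summed level was 3563 to 4143 CPM in replicate 1 and 6518 to 8168 CPM in replicate 2. The control library was the lowest of each number, at 3563 CPM in replicate 1 and 6518 CPM in replicate 2. Knockout libraries ran from 4003 to 8168 CPM over both numbers. Of 15 markers of T cells, B cells, monocytes, fibroblasts and epithelium, EPCAM alone exceeded 10 CPM in its mean over the 6 libraries, at 101 CPM, and 3 were at 0 in all 6. CD3D reached 17.8 CPM and LYZ 17.2 CPM in control replicate 1, and neither exceeded 10 CPM in any replicate 2 library. The summed level of those 15 was 129 to 153 CPM in replicate 1 and 105 to 114 CPM in replicate 2. Here the control library was the highest of each number, at 153 CPM in replicate 1 and 114 CPM in replicate 2. Knockout libraries ran from 105 to 136 CPM over both numbers.

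The members' transcript levels spanned a wide range, led by the deacetylase HDAC1 and the scaffold MTA2. Levels of different genes were compared per transcript length, as the deposited FPKM (fragments scaled to transcript length and library size), over all 6 libraries. HDAC1 had a mean of 145.9 FPKM ± 10.9 (SD, n = 6) and MTA2 113.7 FPKM ± 8.13. A middle tier followed, with MBD3 at 60.9 FPKM ± 3.67, CDK2AP1 at 58.4 FPKM ± 13.4 and GATAD2A at 47.5 FPKM ± 5.16. MTA1 at 36.2 FPKM ± 1.88 and HDAC2 at 32.5 FPKM ± 1.08 came next. The lowest were MTA3 at 18.6 FPKM ± 2.2, MBD2 at 9.59 FPKM ± 0.465 and GATAD2B at 7.56 FPKM ± 0.573. The ranges over libraries overlapped between the neighbours MBD3 and CDK2AP1, CDK2AP1 and GATAD2A, and MTA1 and HDAC2. Within libraries, MBD3 exceeded CDK2AP1 in 3 of 6, while CDK2AP1 exceeded GATAD2A and MTA1 exceeded HDAC2 in 6 of 6 each, so only the order of MBD3 and CDK2AP1 differed between libraries. All other neighbours in the order had ranges that did not overlap. Among all genes with an FPKM above 0, HDAC1 lay at percentile 96.3 and GATAD2B at percentile 61.1. The 2 histone-binding subunits of the same core, RBBP7 and RBBP4, averaged 163 and 52.0 FPKM.

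In every paralogue family a single member held most of the family's length-adjusted signal. HDAC1 made up 81.7% ± 1.28 (SD, n = 6) of the summed HDAC1 and HDAC2 FPKM, with a range of 79.8% to 83.3% over libraries. MTA2 held 67.4% ± 3.06 of its family, against 21.5% ± 1.62 for MTA1 and 11.1% ± 1.54 for MTA3. MBD3 held 86.4% ± 1.24 of the MBD2 and MBD3 signal, and GATAD2A 86.1% ± 2.08 of the GATAD2 pair. The length adjustment matters for the deacetylases: HDAC1 exceeded HDAC2 4.49-fold ± 0.378 in FPKM but 1.27-fold in estimated counts, since the deposited length of HDAC2 is 6656 bases and that of HDAC1 is 2091 bases.

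**Figure D1:**
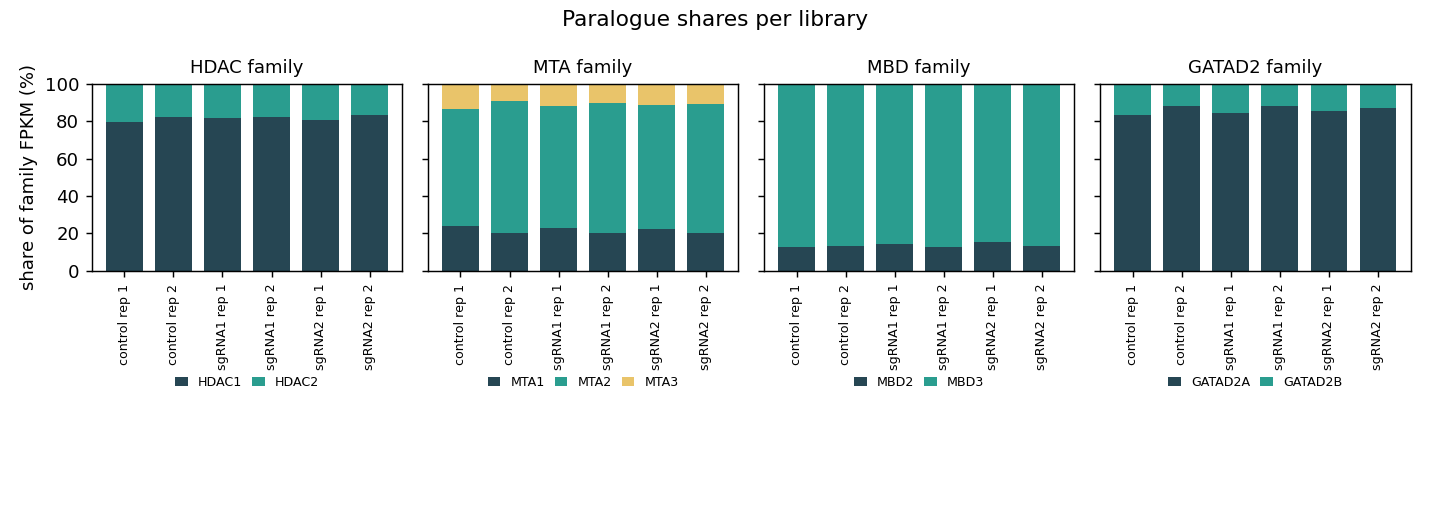
Share of each paralogue in the summed FPKM of its family, in percent, for each of the 6 libraries. HDAC1, MTA2, MBD3 and GATAD2A hold the largest share of their family in every library, and the MTA2 share is 69.3% to 70.6% in replicate 2 against 62.7% to 66.7% in replicate 1.

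GATAD2B is uncertain in the whole-number counts. It had 25 to 55 counts per library, which is 3.58% of its estimated counts of 869 to 1025. For the other 9 members the whole-number counts were 50.2% to 57.1% of the estimated ones, near the median of 54.6% over 10191 genes in both tables. Of those 10191 genes, 4.46% were under 10%, like GATAD2B. For this reason GATAD2B is given from the estimated counts and FPKM as well.

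Loss of ZNF410 was compared with the control guide first, with each library set against the control of its own replicate number. None of the 10 members passed an adjusted p of 0.05 (edgeR quasi-likelihood test with Benjamini-Hochberg adjustment), against a background of 1.84% of the 12282 genes tested. In the estimated counts 0 of 10 passed, against 3.03% of genes. The control and knockout ranges of CPM overlapped for all 10, whereas they did not overlap for 9.44% of genes. Set against the control of the same number, HDAC1 was higher in 4 of 4 knockout libraries in CPM and 3 of 4 in FPKM, and GATAD2A in 4 of 4 in both. GATAD2B was higher in 1 of 4 in CPM and 4 of 4 in FPKM, and MTA1 in 2 of 4 and 0 of 4. The other members were higher in 1 to 3 of 4. The DESeq2 Wald test called 0 members, against 1.32% of all genes. At an unadjusted p under 0.05 the edgeR count was 1 of 10, GATAD2A, where 12.9% of all genes had such a p. In the same fit CHD4 fell by 1.04 on the log2 scale (SE 0.0467, edgeR adjusted p = 1.38e-08), with a 95% interval from -1.14 to -0.94. Without the replicate block no gene was called in this comparison, and the adjusted p of CHD4 was 0.127 in edgeR. The members' median log2 fold change was -0.019, beside 0.0045 over all genes tested, and its sign turned in estimated counts (0.019) and by limma on log2(FPKM + 1) (0.013). With the filter at 50 mean counts the median was 0.00078, and it ran from -0.040 to 0.0055 when each library was left out. For the 9 members with dependable whole-number counts, the 95% intervals of the log2 fold change lay between -0.28 and 0.27, so that changes of the size of CHD4's lay outside all of them.

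**Figure D2:**
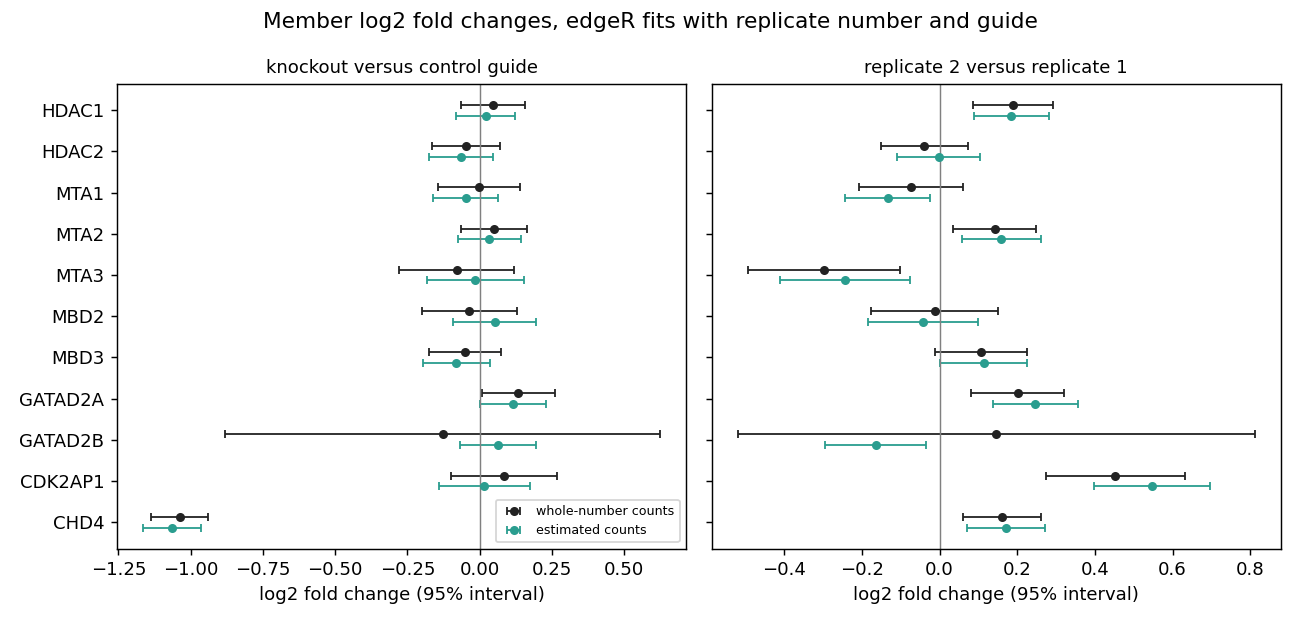
Log2 fold changes of the 10 members and CHD4 with 95% intervals, in whole-number counts (black) and estimated counts (green), for knockout against the control guide and for replicate 2 against replicate 1. CHD4 lies at -1.04 in the knockout comparison while 9 members lie within -0.079 and 0.13 with narrow intervals, and the interval of GATAD2B runs from -0.88 to 0.62 in whole-number counts.

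The deacetylases came first in this comparison. HDAC1, the more abundant catalytic subunit, stood at 251 and 286 CPM in control replicates 1 and 2, at 265 and 302 CPM in the sgRNA1 pair, and 254 and 289 CPM in the sgRNA2 pair. Replicate 2 was the higher library in each group, and the control and knockout ranges overlapped. Its fitted log2 fold change in the knockout was 0.047 (SE 0.0520, edgeR adjusted p = 0.766). HDAC2 was at 237 and 220 CPM in control, 221 and 228 CPM in the sgRNA1 pair, and 222 and 212 CPM in the sgRNA2 pair, with no group apart from the others. Its log2 fold change was -0.047 (SE 0.0554, edgeR adjusted p = 0.785).

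Among the scaffolds, MTA2 had 305 and 349 CPM in control, 312 and 355 CPM in the sgRNA1 pair, and 337 and 348 CPM in the sgRNA2 pair. The groups overlapped, and its log2 fold change in the knockout was 0.050 (SE 0.0527, edgeR adjusted p = 0.753). MTA1, the founding member of the family, was at 106 and 101 CPM in control, 99.2 and 102 CPM in the sgRNA1 pair, and 113 and 98.4 CPM in the sgRNA2 pair. Control libraries lay inside the knockout range, and the log2 fold change was -0.0021 (SE 0.0667, edgeR adjusted p = 0.994). For MTA3, the least abundant scaffold, the control libraries held both extremes at 49.2 and 34.6 CPM, and the knockout libraries lay between them at 43.5, 37.4, 40.4 and 36.1 CPM. Its log2 fold change of -0.079 (SE 0.0930, edgeR adjusted p = 0.785) became 0.080 without control replicate 1.

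The methyl-CpG-binding-domain subunits overlapped between genotypes as well. MBD3, which has lost most of the methyl-CpG binding of its paralogue, was at 146 and 148 CPM in control, 136 and 150.1 CPM in the sgRNA1 pair, and 134 and 148.0 CPM in the sgRNA2 pair. The replicate 1 knockout libraries were the lowest of the 6. Its log2 fold change was -0.051 (SE 0.0578, edgeR adjusted p = 0.776). MBD2, the subunit that binds methylated CpG, had the smallest coefficient of variation in CPM (2.37%), while in FPKM that of HDAC2 was smallest (3.31%, against 4.85% for MBD2). MBD2 stood at 47.2 and 47.5 CPM in control, 45.2 and 46 CPM in the sgRNA1 pair, and 47.9 and 45.5 CPM in the sgRNA2 pair. Its genotypes overlapped, at a fitted log2 difference of -0.036 (SE 0.0765, edgeR adjusted p = 0.901).

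GATAD2A, the more abundant of the bridging subunits, was at 234 and 294 CPM in control, 264 and 308 CPM in the sgRNA1 pair, and 285 and 297 CPM in the sgRNA2 pair. All 4 of its knockout libraries exceeded the same-numbered control, in CPM and in FPKM, while the control and knockout ranges overlapped across numbers. In TPM the sgRNA1 replicate 2 library lay below its control, at 74.77 against 75.15. Its log2 fold change was 0.13 (SE 0.0591, 95% interval 0.0083 to 0.26), with an unadjusted p of 0.0384 and an edgeR adjusted p of 0.345, so it did not pass the test. Without control replicate 1, the lowest library, the value was 0.037, and without control replicate 2 it was 0.23, neither past the test. GATAD2B had 7.91 and 6.70 FPKM in control, 8.10 and 7.02 FPKM in the sgRNA1 pair, and 8.0 and 7.60 FPKM in the sgRNA2 pair, and the genotypes overlapped. Its log2 fold change in estimated counts was 0.064 (SE 0.0604, edgeR adjusted p = 0.679), with a 95% interval from -0.067 to 0.20.

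CDK2AP1, which is also known as a regulator of the kinase CDK2, stood at 43 and 65.5 CPM in control, 47.4 and 69.2 CPM in the sgRNA1 pair, and 51.9 and 60.1 CPM in the sgRNA2 pair. The split was by replicate number, and the genotypes overlapped. Its log2 fold change in the knockout was 0.084 (SE 0.0854, edgeR adjusted p = 0.740), with a 95% interval from -0.098 to 0.27.

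**Figure D3:**
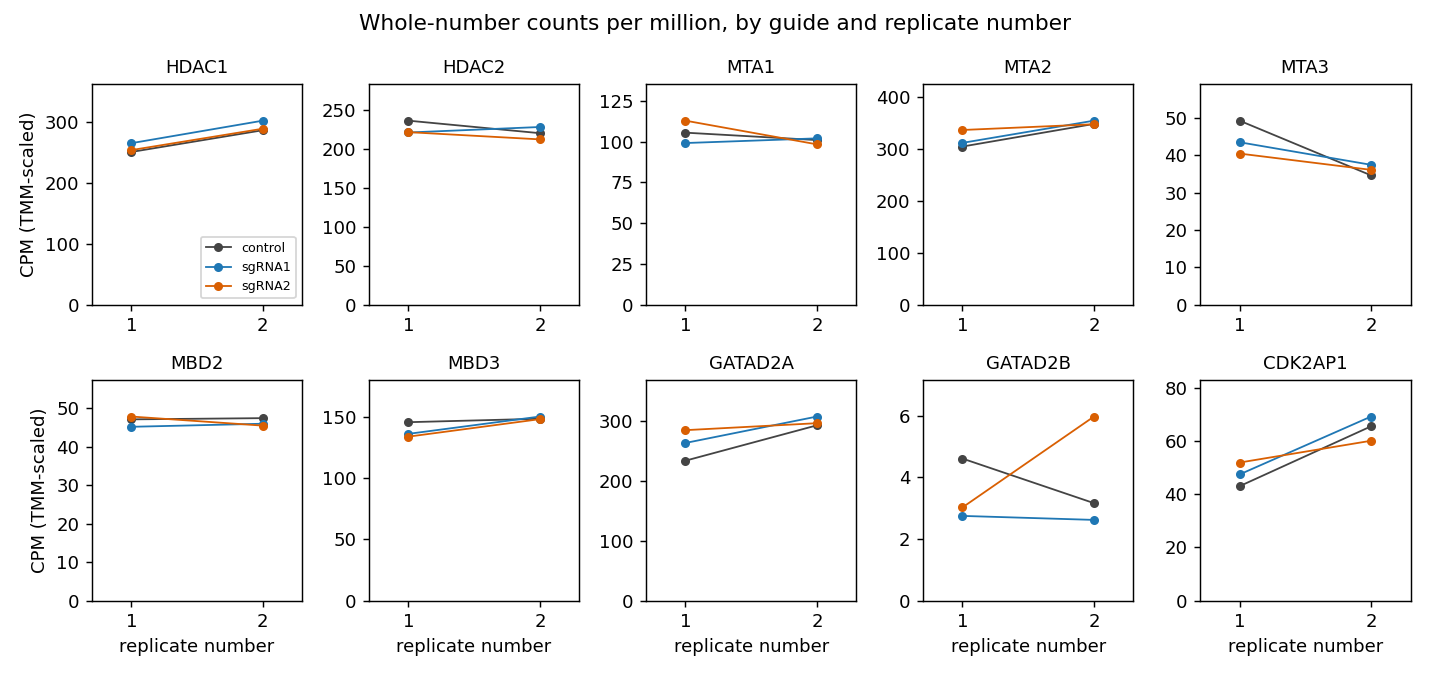
CPM (vertical axis, from 0) of each of the 10 members against replicate number, with 1 point per library and lines joining the libraries of the control guide, sgRNA1 or sgRNA2. CDK2AP1, GATAD2A, HDAC1 and MTA2 are higher in replicate 2 in 3 of 3 groups, as is MBD3, which was not called. MTA3 is lower in 3 of 3, and genotype ranges overlap for every member.

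The 2 guides were also taken apart. With sgRNA1 against control 0 of 10 members were called, against 0.887% of all genes, and with sgRNA2 against control 0 of 10, against 1.38%. At an unadjusted p under 0.05 there were 0 members with sgRNA1 and 1 with sgRNA2 in edgeR, again GATAD2A, against 9.91% and 12.3% of all genes. DESeq2 called 0 members with either guide, against 0.432% of all genes with sgRNA1 and 0.619% with sgRNA2. GATAD2A had a log2 fold change of 0.12 (SE 0.0689, edgeR adjusted p = 0.624) with sgRNA1 and 0.15 (SE 0.0689, edgeR adjusted p = 0.402) with sgRNA2. Both contrasts share the control libraries. Without control replicate 2, GATAD2A was called with sgRNA2, at a log2 fold change of 0.24 (edgeR adjusted p = 0.0345). In that fit 5.02% of genes were called, and the lone control library was assumed to vary like the other groups. Between sgRNA2 and sgRNA1 none of the members was called at an edgeR adjusted p under 0.05, against 0.0896% of all genes. The count at an unadjusted p under 0.05 in edgeR was 0, against 4.39% of all genes. The DESeq2 count of calls was 0, against 0.0326%.

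The paralogue balance did not pass a test between genotypes. The ratio of MTA2 to MTA1 in FPKM exceeded the same-numbered control in 4 of 4 knockout libraries, by 0.082 on the log2 scale (exact permutation test within replicate number, two-sided, p = 0.111, the smallest this test can give, adjusted p = 0.6 over 12 tests). For the other pairs the log2 difference between knockout and control was 0.085 for HDAC1 to HDAC2, 0.042 for MTA2 to MTA3, -0.040 for MTA1 to MTA3, -0.13 for MBD3 to MBD2 and 0.050 for GATAD2A to GATAD2B. The exact permutation p-values of those 5 ran from 0.333 to 0.778. With 9 arrangements of the labels within replicate number, this test cannot reach a p under 0.05.

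Because CHD4 fell while its partners did not pass the test, the amount of CHD4 transcript per partner transcript was written out per library, as a description. The FPKM ratio of CHD4 to MTA2 was 0.899 and 0.880 in control, and 0.433, 0.409, 0.389 and 0.431 in the knockout libraries. CHD4 to HDAC1 was 0.683 and 0.694 in control against 0.310 to 0.333 in knockout. CHD4 to GATAD2A was 2.32 and 2.12 in control against 0.917 to 1.05, and CHD4 to MBD3 was 1.47 and 1.68 against 0.752 to 0.833. In each of the 4 ratios all knockout libraries lay below both control libraries.

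Replicate 2 was then compared with replicate 1 within each group. Of the 10 members, 5 were called (edgeR adjusted p under 0.05), 4 higher and 1 lower in replicate 2, where 45.0% of all genes tested were called, 21.6% higher and 23.5% lower. The members' share was thus near the background. The ranges of CPM did not overlap between replicate numbers for 6 of 10 members (HDAC1, MTA2, MTA3, MBD3, GATAD2A and CDK2AP1), against 52.1% of all genes. The members' median log2 difference was 0.12, beside -0.0043 over all genes, and it was 0.056 in estimated counts, 0.062 by limma on log2(FPKM + 1), and 0.056 and 0.054 without either sgRNA2 library.

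CDK2AP1 showed the largest difference of the 10 in the whole-number counts. Its 3 replicate 2 libraries, at 60.1 to 69.2 CPM, lay above its 3 replicate 1 libraries, at 43 to 51.9 CPM, with a log2 difference of 0.45 (SE 0.0834, edgeR adjusted p = 0.000534). GATAD2A was higher by 0.20 (SE 0.0562, edgeR adjusted p = 0.00939) and HDAC1 by 0.19 (SE 0.0481, edgeR adjusted p = 0.00532). MTA2 was higher by 0.14 (SE 0.0501, edgeR adjusted p = 0.0326). Each of these 4 genes was higher in replicate 2 in 3 of 3 groups. CDK2AP1 and HDAC1 passed in 17 of 17 other settings, GATAD2A in 15 and MTA2 in 11. GATAD2A did not pass without either sgRNA1 library (edgeR adjusted p = 0.0642 and 0.0569). MTA2 did not pass without either control library (edgeR adjusted p = 0.0574 and 0.0697) or either sgRNA1 library (edgeR adjusted p = 0.206 and 0.220), nor by the DESeq2 Wald test (adjusted p = 0.0736) or limma without a filter (adjusted p = 0.0507).

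MTA3 went the other way, with 40.4 to 49.2 CPM in replicate 1 and 34.6 to 37.4 CPM in replicate 2. It fell by 0.30 on the log2 scale (SE 0.0916, edgeR adjusted p = 0.0163), and it passed in 11 of 17 other settings. Without either control library the MTA3 difference was -0.19 and no longer passed (edgeR adjusted p = 0.131 and 0.124). MTA3 also did not pass by the DESeq2 Wald test (adjusted p = 0.123) or in any of the 3 limma fits on FPKM (adjusted p = 0.0868 to 0.207). MBD3 was 0.11 higher (SE 0.0553, edgeR adjusted p = 0.136), also in 3 of 3 groups. It passed after trends with GC content and transcript length were removed, at 0.23 (edgeR adjusted p = 0.00288). MTA1 had a difference of -0.074 (edgeR adjusted p = 0.358), HDAC2 of -0.039 (edgeR adjusted p = 0.568) and MBD2 of -0.013 (edgeR adjusted p = 0.906).

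In the estimated counts 7 of 10 members were called between replicate numbers, 4 higher and 3 lower, against 52.6% of genes, 25.5% higher and 27.1% lower. The 5 above were among them, with CDK2AP1 at 0.55 (edgeR adjusted p = 2.96e-05) and MTA3 at -0.24 (edgeR adjusted p = 0.0175). The other two were GATAD2B, which fell by 0.17 (SE 0.0599, edgeR adjusted p = 0.0341), and MTA1, which fell by 0.13 (SE 0.0503, edgeR adjusted p = 0.0393) and was at 0.039 in the whole-number counts once GC and length trends were removed. GATAD2B passed in 1 of 16 other settings and had a difference of 0.15 in whole-number counts (edgeR adjusted p = 0.729), and MTA1 passed in 2 of 17. GATAD2B had 7.91 to 8.10 FPKM in replicate 1 and 6.70 to 7.60 FPKM in replicate 2, with no overlap. In TPM its ranges did overlap, at 10.83 to 11.38 and 9.94 to 11.11, and they overlapped in CPM. The share of all genes without overlap was taken in CPM only, at 52.1%. In the whole-number counts 9 of 9 K562 markers were called between replicate numbers, 8 higher and 1 lower, against 45.0% of all genes. Of 6 tested markers of other cell types 2 were called, the T-cell marker CD3D at a log2 difference of -2.53 and the monocyte marker LYZ at -2.34. Their part in the members' differences was not tested.

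The paralogue balance did not pass a test between replicate numbers either. The MTA2 share of its family was 64.9% ± 2.05 in replicate 1 and 69.9% ± 0.642 in replicate 2 (SD, n = 3 each), and the MTA3 share was 12.2% ± 1.23 and 9.95% ± 0.858. GATAD2A held 84.4% ± 1.05 of its pair in replicate 1 and 87.9% ± 0.597 in replicate 2, and HDAC1 80.7% ± 0.985 and 82.7% ± 0.536. Those 4 shares did not overlap between the numbers. The MTA1 share did not overlap either, at 22.9% ± 0.825 in replicate 1 and 20.2% ± 0.233 in replicate 2. That of MBD3 did, at 84.3% to 87.3% in replicate 1 and 86.9% to 87.3% in replicate 2. In CPM, 52.1% of all genes had no overlap between the numbers, and no such background was taken for shares. The log2 ratio of GATAD2A to GATAD2B was 0.43 higher in replicate 2, that of MTA2 to MTA3 0.40, that of MTA2 to MTA1 0.29 and that of HDAC1 to HDAC2 0.19, each in 3 of 3 groups. With 3 groups the exact sign-change test, two-sided, cannot go below p = 0.25, which each of the 4 reached (adjusted p = 0.6 over 12 tests). MBD3 to MBD2 and MTA1 to MTA3 were higher in 2 of 3 groups, by 0.16 and 0.10.

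Whether the replicate difference itself differed between knockout and control was tested with an interaction term. Of the 10 members 0 were called, against 0.244% of all genes. At an unadjusted p under 0.05 in edgeR there were 0, against 8.35% of all genes. DESeq2 called 0, against 0.0896%. MTA3 had the smallest unadjusted p, 0.0708, at an interaction of 0.32 (SE 0.165, edgeR adjusted p = 0.645). Its control library fell from 49.2 to 34.6 CPM between the numbers, while sgRNA1 went from 43.5 to 37.4 CPM and sgRNA2 from 40.4 to 36.1 CPM. In the estimated counts the MTA3 interaction was also 0.32 (SE 0.121, unadjusted p = 0.0185, edgeR adjusted p = 0.435).

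The remaining NuRD core genes were read from the same fits. Of 5 tested, CHD4 was called in the knockout, against 1.84% of all genes, and 4 between replicate numbers, against 45.0%. CHD3, a second remodeller, was 0.37 higher, CHD4 0.16 and the histone chaperone RBBP4 0.12, while CDK2AP2, the paralogue of CDK2AP1, fell by 0.21 (edgeR adjusted p = 0.0425). CDK2AP1 and CDK2AP2 thus had opposite signs between the replicate numbers. RBBP7 had a log2 difference of 0.040 (edgeR adjusted p = 0.537). MBD1, another methyl-CpG binder, had a log2 fold change of 0.056 in the knockout (edgeR adjusted p = 0.823) and was 0.27 higher in replicate 2 (edgeR adjusted p = 0.00685).

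Other deacetylases and the complexes that share HDAC1 and HDAC2 were read against the background of all genes, of which 1.84% were called in the knockout and 45.0% between replicate numbers. With so few genes called in the knockout, a count of 0 or 1 in a list of this size is near that background. Of 9 other zinc-dependent deacetylases 0 were called in the knockout. Between replicate numbers HDAC7, a class IIa deacetylase, fell by 0.96 (edgeR adjusted p = 8.88e-09), HDAC5 fell by 0.24 and HDAC10 was 0.50 higher. Of 16 SIN3-complex genes 1 was called in the knockout, FAM60A, which fell by 1.47 in whole-number counts (edgeR adjusted p = 0.0262). Those counts were 2.06% of its estimated counts under the symbol SINHCAF, where the log2 fold change was -0.015 (edgeR adjusted p = 0.930). Between replicate numbers 5 SIN3-complex genes were higher and 3 lower, with SUDS3 at 0.30, BRMS1L at 0.88, ING1 at -0.33 and FAM60A at -1.37 (edgeR adjusted p = 0.00416). As SINHCAF in the estimated counts the last had a difference of -0.51 (edgeR adjusted p = 1.99e-06).

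The CoREST complex, which joins HDAC1 or HDAC2 to the demethylase KDM1A, had 0 of 10 genes called in the knockout, 1 higher and 5 lower between replicate numbers. The log2 difference was -1.53 for RCOR2, -0.70 for PHF21A and -0.35 for GSE1. In the estimated counts RCOR2 was called in the knockout, 0.74 higher (edgeR adjusted p = 0.0450), and in whole-number counts its value was 0.63 (edgeR adjusted p = 0.247). Of 6 genes of the MiDAC and MIER complexes 0 were called in the knockout, while 2 were higher and 2 lower between replicate numbers, with TRERF1 at -2.55. Of 10 tested proteins that recruit NuRD 0 were called in the knockout, and ZFPM1, the GATA1 cofactor FOG1, was 0.40 higher in estimated counts (edgeR adjusted p = 0.0343) and 0.41 in whole-number counts (edgeR adjusted p = 0.0569). Between replicate numbers 5 of those 10 were higher and 2 lower, with ZMYND8 at -0.55, BEND3 at 0.69, ZNF592 at 0.43, ZBTB7A at 0.39 and IKZF1 at 0.30.

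Genes of DNA replication and division were listed because CDK2AP1 is named for a cell-cycle kinase. Of 13 genes 0 were called in the knockout, and 4 were higher and 2 lower between replicate numbers, near the 1.84% and 45.0% of all genes called in those comparisons. MKI67 was higher by 0.61 and RRM2 by 0.48, TOP2A fell by 0.30 and CDK1 fell by 0.23. The median of the 13 between replicate numbers was -0.0057, beside -0.0043 over all genes, and it was 0.0087 in estimated counts. Signs were thus mixed within the list.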

How the data were processed

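RNA-seq of 6 K562 libraries was read from the deposited tables. The whole-number counts per gene symbol (26485 symbols) were deposited by the authors. 5 further rows of reads given to no gene held 61.6% to 62.6% of each table and were left out. The estimated counts are, per the file headers, an expected count per gene for 28069 genes, with TPM and FPKM beside it, which the authors scaled by length and depth. TPM entered no test. The submitters' processing notes name Trim Galore, HISAT2 2.2.1, SAMtools 1.9, HTSeq 0.6.1, RSEM 1.3.2, DESeq2 1.36.0 and hg38, with no roles. The strand setting is not given in the sources used here, so overlapping and antisense genes are uncertain.

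The test of the counts was that of edgeR 4.0.16 under R 4.3.3 (quasi-likelihood F-test, TMM scaling, filterByExpr by group, 12282 genes, Benjamini-Hochberg adjustment over all of them, call at 0.05) on all 6 libraries. The replicate number was a block, since paired differences were asked for. The genotype fit had replicate and genotype as terms, the guide and replicate fits replicate and group, and the interaction fit replicate, genotype and their product. CPM used TMM-scaled library sizes. Standard errors are the log2 fold change over the square root of F. The pairing comes from the data: deviations of same-numbered libraries correlated at r = 0.815, 0.761 and 0.829 over the 9966 genes averaging 50 or more counts. The replicates of a group differed by a chi-square of 22.3 to 26.8 per degree of freedom, so no library was a repeat. Scripts were tested on simulated data. Ratios of paralogues used FPKM with exact permutations.

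Other settings were DESeq2 1.42.0 size factors or Wald test, upper-quartile scaling, other count filters, rounded estimated counts, limma 3.58.1 on log2(FPKM + 1) or log2(FPKM + 0.1), GC and length trends removed, no block, and each library left out. All 10 members are named. Other genes are those called in a list (at most 5 a list, by adjusted p), or its first ones. The nearest gene of a member has the smallest root mean square difference of centred log2 CPM. A listed gene is not reported here. Members and lists were chosen with earlier results of these data known. Promoters are from RefSeq (GRCh38.p14), and 10 of 10 members matched.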

Additional observations from a re-analysis of the deposited data

Results flagged for a closer look

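GATAD2B in whole-number counts had 1 knockout library far from the other 3. The sgRNA2 replicate 2 library stood at 5.98 CPM and its nearest neighbour at 3.03 CPM, a gap that is 0.879 of the range of the 4 libraries. Chance flags about 1 in 20 such groups, and 20 groups were examined. In FPKM the same library, at 7.60, lay inside the range of the other knockout libraries.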

How the results depend on the processing

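With 2 libraries a group and, for GATAD2B, 25 to 55 counts a library, depth and replication limit the smaller differences. In the knockout comparison 0 members were called in any other setting run. Without the replicate block 0 of 12282 genes were called in the genotype and guide comparisons, so the 0 of 10 members there carries no information, and the CHD4 call rests on the block (log2 fold change -1.04 without it, edgeR adjusted p = 0.127). Between replicate numbers 3 members were called by the DESeq2 Wald test, where 28.0% of genes were, and 3 to 5 when each library was left out (3 without either control or either sgRNA1 library), where 31.5% to 43.3% of genes were. A group left with a lone library is assumed to vary like the others. For sgRNA2 against control, leaving out each library gave 0 to 1 calls. Leaving out a control library allowed no interaction fit, and the filter at 50 mean counts gave no GATAD2B value. Whole-number counts per effective length gave an MBD2 share of 12.4% and a GATAD2B share of 1.04%. The cause of the changes here and below was not tested.

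Signs turned mostly for values near 0. In the knockout comparison, MTA1 was 0.00078 with the filter at 50 mean counts and -0.050 to 0.030 when each library was left out. MBD2 was 0.052 in estimated counts and 0.052, 0.056 and 0.052 by limma (pseudocount 1, pseudocount 0.1, no filter). GATAD2B was 0.064 in estimated counts, 0.066, 0.074 and 0.066 by limma, and -0.67 to 0.43 over the left-out libraries. CDK2AP1 was -0.0062, -0.0063 and -0.0062 by limma and -0.026 to 0.21 over the left-out libraries. There MTA3 ran from -0.23 to 0.080 and MBD3 from -0.11 to 5.34e-05.

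Between replicate numbers, HDAC2 was 0.0045, 0.0046 and 0.0045 by limma, and MTA1 was 0.039 with GC and length trends removed. GATAD2B was -0.17 in estimated counts, -0.15, -0.17 and -0.15 by limma, and -0.32 to 0.52 over the left-out libraries, where MBD2 ran from -0.031 to 0.022. Among the log2 ratios in the knockout, MTA1 to MTA3 was 0.067 with whole-number counts per effective length. Over the left-out libraries it ran from -0.24 to 0.16, MTA2 to MTA3 from -0.23 to 0.31, MBD3 to MBD2 from -0.30 to 0.032 and GATAD2A to GATAD2B from -0.070 to 0.17. Between replicate numbers MTA1 to MTA3 ran from -0.029 to 0.20.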

Other observations

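For each member averaging 50 or more counts, which leaves out GATAD2B, the gene with the most similar centred log2 CPM profile over the 6 libraries was named, among 9964 others. The measure is the root mean square difference in log2 CPM. MTA2 lay nearest to PITPNB, at 0.00902, and MBD2 to ADNP, at 0.0145. MBD3 lay nearest to NUCKS1 at 0.0148, HDAC2 to RBM17 at 0.0166 and HDAC1 to CDC6 at 0.0196. MTA1 was closest to GSS at 0.0225, GATAD2A to AKAP1 at 0.0235, CDK2AP1 to MRPL21 at 0.0262 and MTA3 to HMGB2 at 0.0293. With 6 libraries that split mainly by replicate number, many genes share such profiles, and no likeness of function is implied.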
